A study of Homo sapiens with 42 samples.

Results

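ITIH3 and ITIH4, the genes of inter-alpha-trypsin inhibitor heavy chains, were followed in Hep3B cells, a human hepatoma line. The probes were taken by name: every probe that the array annotation assigns to ITIH3 or ITIH4 and to no other gene, which gave 6 of the 13824 probes on the array, 3 for each gene, and 2 of the 5631 genes it names. The ITIH3 probes have the numbers 2382, 5405 and 7418, and the ITIH4 probes the numbers 8239, 9401 and 11628. Each probe is given by itself, since the levels of different probes cannot be set against each other.

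Messenger RNA was measured on 42 arrays, 21 from cultures in CM, a medium rich in pro-inflammatory cytokines, and 21 from cultures in NCM, its control. The 7 sampling times were T0 and then 15 min, 30 min, 1 h, 3 h, 6 h and 16 h in either medium, with 3 arrays per medium and time. Each CM culture has an NCM partner from the same lot of trypsinized cells, so each time has 3 pairs, 1 from each of 3 experiments that the labels call independent. The labels name no single cytokine of CM and no dose, and 1 cell line is the only model. Total RNA of a whole culture was measured, so fewer cells carrying a transcript and less transcript per cell cannot be told apart.

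Heavy chains are secreted by the liver. ITIH1, ITIH2 and ITIH3 encode chains that are joined covalently to bikunin, a protease inhibitor encoded by AMBP, and can be handed over to hyaluronan in the extracellular matrix. The chain of ITIH4 lacks the site for bikunin, circulates by itself and is cut by plasma kallikrein. Its level in plasma rises in inflammation, and interleukin-6 is known to induce it in hepatoma cells, which makes a cytokine-rich medium on Hep3B cells a setting in which the members can be compared.

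ITIH3 and ITIH4 are direct neighbours on chromosome 3 and are read in opposite directions. In the gene order of assembly GRCh38.p14, ITIH1 comes before ITIH3, and ITIH4 is followed by MUSTN1 and STIMATE. The 250 bases upstream of each start site in RefSeq are shown because they are the stretch in which both genes could differ in the letters that cytokine-responsive factors are known to recognize. The window of ITIH3 is chr3:52794546-52794795 on the plus strand and that of ITIH4 is chr3:52830673-52830922 on the minus strand, both in GRCh38.p14 and written 5′ to 3′ in the direction of the gene. Capitals mark a match to the inverted repeat of STAT factors.
ITIH3: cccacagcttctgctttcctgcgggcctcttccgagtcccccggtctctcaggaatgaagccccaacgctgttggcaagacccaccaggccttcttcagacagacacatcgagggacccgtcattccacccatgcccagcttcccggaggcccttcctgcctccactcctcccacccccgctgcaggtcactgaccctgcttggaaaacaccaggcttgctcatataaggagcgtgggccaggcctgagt
ITIH4: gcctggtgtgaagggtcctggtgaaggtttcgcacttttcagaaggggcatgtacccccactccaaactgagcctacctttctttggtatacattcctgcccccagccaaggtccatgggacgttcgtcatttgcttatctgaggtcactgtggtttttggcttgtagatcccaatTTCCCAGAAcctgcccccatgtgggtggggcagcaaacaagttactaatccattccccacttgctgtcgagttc

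The STAT repeat was searched as TTC, any 3 bases and GAA, which reads the same on both strands. It occurred once upstream of ITIH4, from 74 to 66 bases before the start site, and not in the window of ITIH3. Of 35116 RefSeq promoter windows of this length, 6.57% hold such a match. A C/EBP core, TTGC, any 2 bases and AA on either strand, is in 9.05% of the windows, and the HNF1 motif GTTAAT on either strand in 6.23%. Neither occurred in the windows of ITIH3 and ITIH4. These matches describe letters in the reference only.

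The deposited values are linear intensities with a mean near 1 on every array. They were quantile normalized across the arrays and are given as log2 values, so a value of 0 stands for an intensity of 1. Marker genes of cell types were each taken by their brightest probe. Of 13 hepatocyte markers 12 were measured, and the signal of all 12 lay above that of the median probe. Among markers of other cells, 2 of 6 measured leukocyte genes, 2 of 5 fibroblast genes and 0 of 4 endothelial genes did so. These positions describe the signal of probes and do not compare expression between genes. Their mean levels put the ITIH3 probes 2382, 5405 and 7418 at percentiles 10.4, 18.2 and 55.7 among all probes. The ITIH4 probes 8239, 9401 and 11628 lay at percentiles 36.0, 55.4 and 66.0. No normalized ITIH3 or ITIH4 value was at the floor of 0.0812 set before taking logs. The lowest lay little above it, with log2 values of -3.50 on ITIH3 probe 5405 and -3.28 on ITIH4 probe 8239. Both are NCM values of experiment 1, at 3 h and at 6 h.

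Part of the values of ITIH3 and ITIH4 is not independent in the deposited table. Of 252 values of these 6 probes, 22 are equal, in every deposited digit, to a value of another probe of the same gene. All 6 arrays of ITIH3 probe 7418 at 16 h carry the numbers of ITIH3 probe 2382 at 6 h, in the same medium and experiment. ITIH4 probe 8239 shares 5 values at 3 h and 6 h with ITIH4 probe 9401, in part from another experiment. In addition, the NCM intensity of probe 8239 at 6 h in experiment 2, 0.447, is that of probe 9401 in experiment 1, 0.547, less 0.1. Probes 5405 and 11628 share none. Over all genes with more than 1 probe, 306 of 118986 values were shared in this way, in 27 of 2833 probes. Which probe a shared number belongs to cannot be told apart, so most main values that rest on one are marked as such. Captions, ranks, ranges and values under alternatives of probes 2382, 7418, 8239 and 9401 can rest on shared numbers without a mark.

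**Figure D1:**
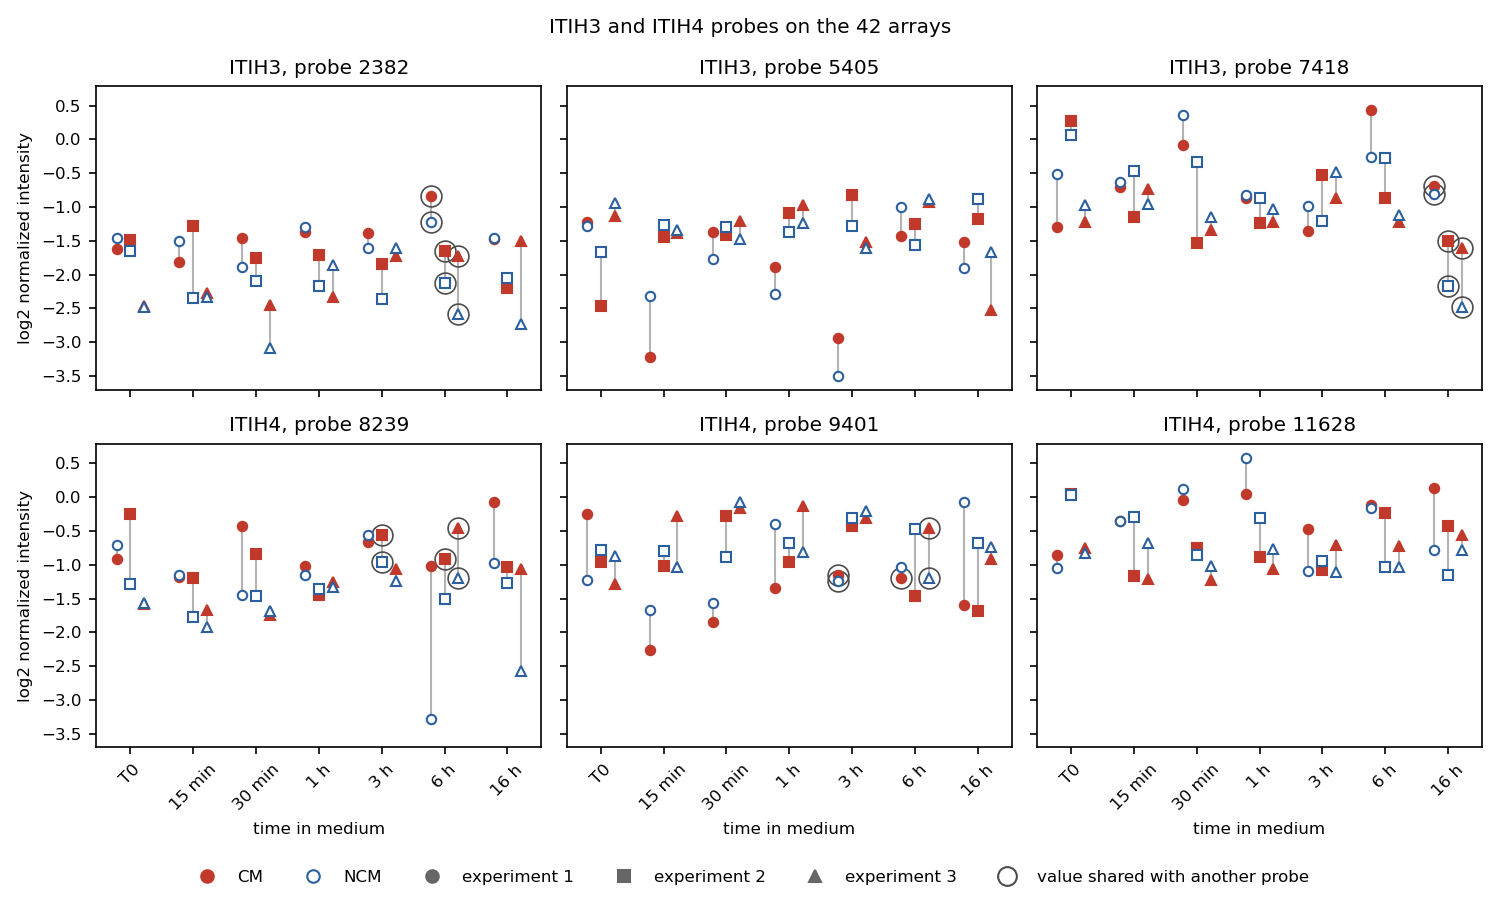
Log2 normalized intensity of the 3 ITIH3 probes (upper row) and the 3 ITIH4 probes (lower row) by time, with CM filled and NCM open, one symbol shape per experiment and a grey line joining each pair. Rings mark the 22 values that another probe of the same gene also carries; the NCM value of probe 8239 in experiment 1 at 6 h, -3.28, stands lowest in its panel.

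All changes are CM minus NCM within pairs on the log2 scale, with the standard error (SE) and adjusted p from limma. The spread behind them is pooled over the pairs of all times and moderated over all probes, so it is not the spread of 3 pairs alone. Pairs of different times were taken as independent, which the labels do not settle. P-values were adjusted by the Benjamini-Hochberg method over all 13824 probes, and a probe was called at an adjusted p under 0.05. No ITIH3 or ITIH4 probe was called at any time or in any mean over times. The share of all probes called was 0% at T0 and at each time from 15 min to 6 h, 0.00723% at 16 h and 0.0434% for the mean of 3 h, 6 h and 16 h. It was also 0% for the early mean, for the differences between means and for the levels over time given below. ITIH3 and ITIH4 thus share their lack of calls with nearly every probe on the array, and the values below are descriptions of size and direction. CM was higher in 3 of 3 pairs for 8.8% to 15.6% of all probes, depending on the time, and lower in 3 of 3 for 9.19% to 12.8%.

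The largest ITIH4 differences between the media in size were at the late times, though none passed the test. On probe 8239 the mean of 3 h, 6 h and 16 h was 0.75 higher in CM (1.68-fold, SE 0.17, 95% interval 0.38 to 1.11, adjusted p = 0.303), higher in 8 of 9 pairs. On probe 11628 it was 0.43 higher (1.35-fold, SE 0.12, interval 0.19 to 0.68, adjusted p = 0.554), also in 8 of 9 pairs. The late mean of probe 8239 was 0.50 without the quantile normalization. Without the values shared with probe 9401 the late mean was 1.06, and at 6 h it then rests on the pair of experiment 1 alone. On the remaining ITIH4 probe, 9401, the late mean, in part of shared values, was -0.37 (SE 0.20, adjusted p = 0.827), higher in 2 of 9 pairs. It lay at -0.20 without experiment 2 and at -0.62 without experiment 3. The ITIH4 probes therefore differed in sign, and 8 or more of 9 pairs were higher in CM for 3.15% of all probes. By size, probe 8239 ranked 9 and probe 11628 ranked 183 from the top of 13824 probes, and probe 9401 ranked 13385.

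The late change of ITIH4 probe 8239 lay mainly at 6 h and 16 h. At 6 h its log2 intensities in experiments 1, 2 and 3 were -1.02, -0.92 and -0.46 in CM and -3.28, -1.51 and -1.19 in NCM. Every CM value was above every NCM value, which held for 2.08% of all probes at this time. The change was 1.19 (2.28-fold, SE 0.30, n = 3 pairs, adjusted p = 0.833), and it was set largely by the NCM value of experiment 1. That NCM value lay little above the floor. Without experiment 1 the change was 0.66, and on the values as deposited it was 0.61. The CM value of experiment 2 and both values of experiment 3 are shared with probe 9401, and the NCM value of experiment 2 is the one that differs from it by 0.1. Without the shared values only the pair of experiment 1 is left, with a change of 2.25.

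At 16 h no value of ITIH4 probe 8239 is shared. Its log2 intensities were -0.06, -1.03 and -1.07 in CM and -0.98, -1.27 and -2.57 in NCM. CM was higher in 3 of 3 pairs, and the groups overlapped. The change was 0.89 (1.85-fold, SE 0.30, adjusted p = 0.942), and 0.58 both without experiment 3, whose NCM value is the lowest, and on the values as deposited. At 3 h the values lay between -1.07 and -0.55 in CM and between -1.24 and -0.56 in NCM, and the change was 0.16 (SE 0.30). The pair of experiment 2 there is shared with probe 9401, and without it the change was 0.04. In the earlier samples probe 8239 had 0.27 at T0, 0.26 at 15 min, 0.53 at 30 min and 0.04 at 1 h (SE 0.30 each). The T0 value sets the background of this probe: the late mean, in part of shared values, exceeded it by 0.47 (SE 0.35, adjusted p = 1.00). This difference was 0.095 without experiment 1, 0.30 without experiment 3 and 1.02 without experiment 2.

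ITIH4 probe 11628, the brightest of the gene and free of shared values, had negative changes at 15 min, 30 min and 1 h and positive ones from 3 h on. At 16 h its log2 intensities in experiments 1, 2 and 3 were 0.13, -0.42 and -0.57 in CM and -0.78, -1.15 and -0.78 in NCM. The groups did not overlap, with CM above, as for 2.48% of all probes. The change was 0.62 (1.53-fold, SE 0.20, adjusted p = 0.942). At 6 h CM had -0.11, -0.24 and -0.73 and NCM -0.16, -1.03 and -1.03, a change of 0.38 (SE 0.20). At 3 h CM had -0.47, -1.08 and -0.71 and NCM -1.09, -0.95 and -1.11, a change of 0.30 (SE 0.20). CM was thus higher in 3 of 3 pairs at 6 h and 16 h and in 2 of 3 at 3 h.

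At the early times ITIH4 probe 11628 was lower in CM in most pairs. At 1 h CM had 0.04, -0.88 and -1.07 and NCM 0.58, -0.30 and -0.76, a change of -0.48 (SE 0.20, adjusted p = 0.977). At 15 min CM had -0.36, -1.17 and -1.21 and NCM -0.35, -0.29 and -0.68, a change of -0.47 (SE 0.20, adjusted p = 1.00). CM was lower in 3 of 3 pairs at both times, at 15 min only barely so in experiment 1, and the groups overlapped. At 30 min the change was -0.08 and at T0 0.09 (SE 0.20 each). The mean of 15 min, 30 min and 1 h was -0.34 (SE 0.12, adjusted p = 0.686), lower in 8 of 9 pairs, against 2.84% of all probes with 8 or more of 9 pairs lower.

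The late mean of ITIH4 probe 11628 exceeded its early mean by 0.78 (SE 0.17, 95% interval 0.43 to 1.12, adjusted p = 0.453). By unadjusted p this was rank 2 of all probes in that contrast. For the other ITIH4 probes, with their shared values, the same difference was 0.47 (SE 0.25) on probe 8239 and -0.33 (SE 0.29) on probe 9401. The late mean of probe 11628 exceeded its change at T0 by 0.34 (SE 0.24, adjusted p = 1.00). Averaging the ITIH4 probes on each array lowered the late mean to 0.27, the 16 h change to 0.20 and the late minus early difference to 0.31. In the early samples the averaged values were -0.07 at 15 min, 0.17 at 30 min, -0.21 at 1 h and -0.035 for the early mean.

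ITIH4 probe 9401 had the opposite sign at 16 h. Its log2 intensities were -1.60, -1.68 and -0.91 in CM and -0.07, -0.67 and -0.74 in NCM. Every CM value lay below every NCM value, as for 2.76% of all probes. The change was -0.90 (0.535-fold, SE 0.35, adjusted p = 0.942), and -0.59 without experiment 1. At all other times it stayed between -0.18 and 0.13 (SE 0.35), but at 3 h and 6 h probe 9401 shares values with probe 8239. Without them only the pair of experiment 2 is left at 6 h, with a change of -0.99. The late mean of probe 9401, which then rests on that pair at 6 h, was -0.67. At 16 h no value of the ITIH4 probes is shared, and there probes 8239 and 11628 had 0.89 and 0.62 beside -0.90 of probe 9401.

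**Figure D2:**
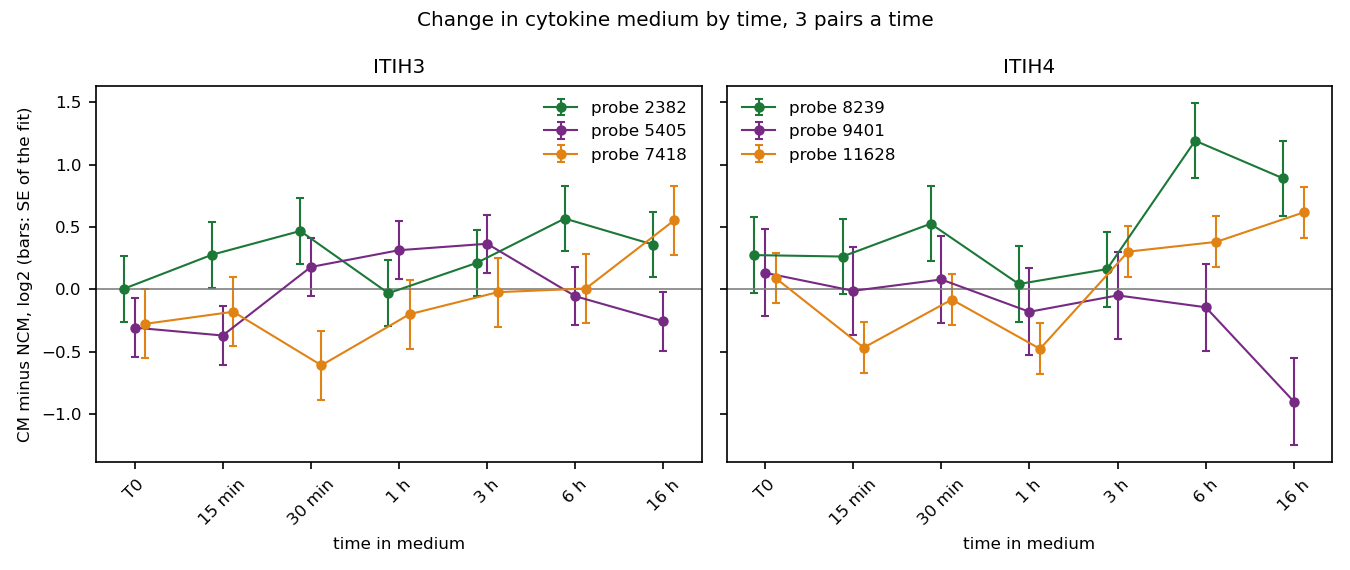
Change in CM against NCM (log2, vertical axis) at the 7 times for the ITIH3 probes (left) and the ITIH4 probes (right); points are means of 3 pairs and bars the SE of the fit. ITIH4 probes 8239 and 11628 end at 0.89 and 0.62 at 16 h and probe 9401 at -0.90, while the ITIH3 probes stay between -0.61 and 0.57.

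ITIH3, the heavy chain gene of the bikunin complex pre-alpha-inhibitor, had late means between 0.02 and 0.38 on its 3 probes, none of which passed the test. The mean of 3 h, 6 h and 16 h was 0.38 on probe 2382 (1.30-fold, SE 0.15, adjusted p = 0.825, higher in 6 of 9 pairs). It was 0.02 on probe 5405 (SE 0.14, higher in 5 of 9) and 0.18 on probe 7418 (SE 0.16, higher in 5 of 9). The last of these includes the 16 h numbers shared with probe 2382, and the first includes the same numbers at 6 h. For neither probe could a late mean be fitted without them.

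The numbers that both ITIH3 probes carry appear at 6 h on one and at 16 h on the other. At 6 h probe 2382 had log2 intensities of -0.84, -1.65 and -1.73 in CM and -1.23, -2.12 and -2.58 in NCM, a change of 0.57 (SE 0.26, adjusted p = 0.999). At 16 h probe 7418 had -0.69, -1.50 and -1.61 in CM and -0.81, -2.17 and -2.48 in NCM, a change of 0.55 (SE 0.28, adjusted p = 0.942). CM was higher in 3 of 3 pairs in each, and the groups overlapped. These are 1 set of 6 deposited intensities, and the log2 values differ only through the normalization of the arrays they stand on. They are therefore not evidence at 2 times.

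Among the ITIH3 values that are not shared, probe 7418 had its largest change at 30 min. CM had -0.09, -1.54 and -1.33 there and NCM 0.36, -0.33 and -1.15, a change of -0.61 (0.655-fold, SE 0.28, adjusted p = 0.997), lower in 3 of 3 pairs, and -0.31 without experiment 2. Its early mean was -0.33 (SE 0.16, adjusted p = 0.706), lower in 8 of 9 pairs. It was -0.12 without experiment 2, and -0.018 with the ITIH3 probes averaged. Probe 2382 had the opposite sign at 30 min, with CM at -1.46, -1.76 and -2.45 and NCM at -1.89, -2.10 and -3.08. Its change was 0.47 (SE 0.26, adjusted p = 0.997), higher in 3 of 3 pairs. The mean of the ITIH3 probes at 30 min was 0.01.

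ITIH3 probe 5405 had changes between -0.37 at 15 min and 0.36 at 3 h (SE 0.23 each). Its 3 lowest values were in experiment 1, with -3.22 in CM at 15 min, where the NCM partner had -2.32, and with -2.94 in CM and -3.50 in NCM at 3 h. In experiments 2 and 3 its values lay between -2.52 and -0.82. At 1 h and 3 h CM was higher in 3 of 3 pairs, by 0.31 and 0.36, and at 15 min lower in 3 of 3.

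Counted over both genes, 3 of 6 probes had an unadjusted p under 0.05 at 16 h (ITIH4 8239 and 11628 higher, 9401 lower), against 4.76% of all probes. At 6 h the count was 2 (8239 and ITIH3 2382, both resting in part on shared values), against 3.76%. At 15 min, 30 min and 1 h it was 1 each (11628, 7418 and 11628, all lower), against 3.56%, 3.51% and 4.38%. At T0 and 3 h it was 0, against 5.06% and 3.26%. For the late mean 3 probes were higher (11628, and 2382 and 8239 with shared values), against 5.98% in both directions, and for the early mean 1 was lower (11628), against 7% in both directions. For the late mean minus the early mean it was 2 (11628, and 7418 with its shared 16 h numbers, both higher), against 7.49%, and for the late mean minus T0 it was 0, against 3.89%. The 6 probes are few, belong to 2 genes and share values, so these counts are a description.

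Over the late mean, 5 of 6 ITIH3 and ITIH4 probes were above 0, against 51.4% of all probes. The median was 0.28, beside 0.01 for all probes. It lies between 0.18 of ITIH3 probe 7418 and 0.38 of ITIH3 probe 2382, which share values. At T0, 4 of 6 were above 0, against 51.9%, with a median of 0.05. At 16 h the median was 0.45, with 4 of 6 above 0, against 50.8%. This median lies between 0.36 of probe 2382 and 0.55 of probe 7418, whose 16 h numbers are all shared. The late and 16 h medians thus rest in part on shared values.

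**Figure D3:**
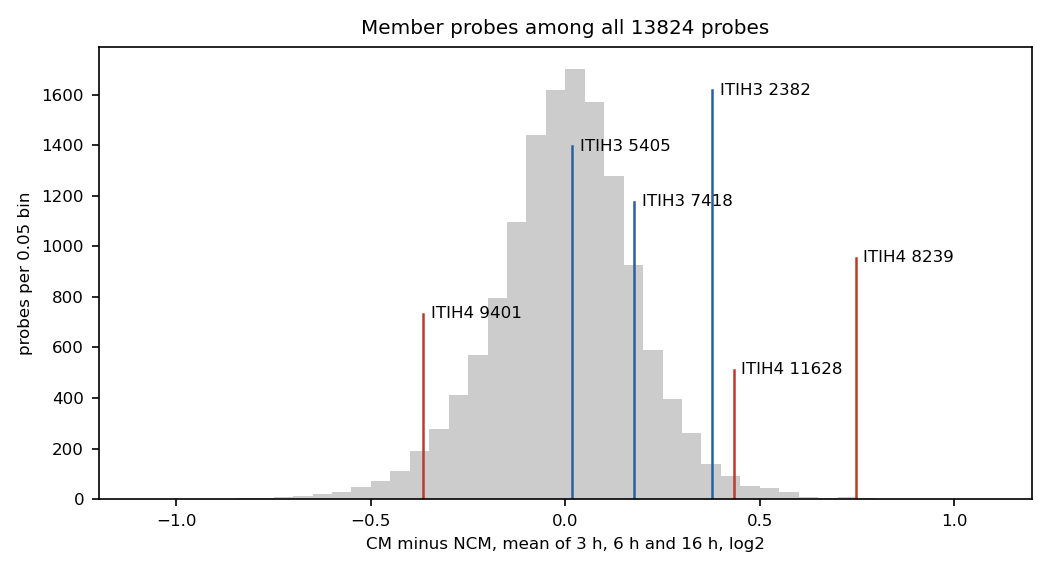
Distribution of the late mean change (CM minus NCM, log2, mean of 3 h, 6 h and 16 h) over all 13824 probes as grey bars of width 0.05, with lines at the ITIH3 probes (blue) and ITIH4 probes (red); line heights only separate the names. ITIH4 8239 lies at 0.75 and ITIH4 11628 at 0.43 on the right, and ITIH4 9401 at -0.37 on the left.

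The late changes of ITIH4 and ITIH3 were set against each other on the brightest probe of each gene, 11628 and 7418. ITIH4 exceeded ITIH3 by 0.26 (SD 0.81, 9 pairs, 95% interval -0.37 to 0.88), and did so in 6 of 9 pairs. An exact two-sided sign-flip test, which takes the 9 pairs as independent, gave p = 0.363, where the smallest possible value is 0.00391. The labels do not say whether an experiment number stands for the same lot of cells at different times. The interval holds 0 as well as a difference of 0.88, so these pairs do not settle whether the genes differ, and 3 of the 9 pairs use the 16 h numbers that ITIH3 probe 7418 shares.

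The pair differences of the 6 probes were only loosely related. Over the 21 pairs, Pearson correlations between ITIH3 and ITIH4 probes or within a gene lay between -0.38 and 0.45. The highest were those of ITIH4 probe 8239 with ITIH3 probe 2382 (0.45) and with ITIH3 probe 7418 (0.45), and the lowest that of 8239 with ITIH3 probe 5405. Within ITIH4, probes 8239 and 11628 had 0.14, and probes 9401 and 11628 had -0.33. The points share arrays and a normalization, and some share values. The 3 probes of a gene thus did not rank the pairs alike.

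The levels over time, without the pairing, did not pass the test in either medium. In NCM, ITIH3 probe 7418 was lower at 16 h than at T0 by -1.34 on the log2 scale (SE 0.42, adjusted p = 0.998), which rests on the shared 16 h numbers. It was the only ITIH3 or ITIH4 probe with an unadjusted p under 0.05 there, against 3.76% of all probes. In CM the 6 probes had differences between -0.57 and 0.24, none with an unadjusted p under 0.05, against 1.29% of all probes. ITIH4 probe 11628 had -0.29 in NCM and 0.24 in CM (SE 0.37 each).

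The partners of the heavy chains were measured by 9 probes, 3 each for ITIH1, ITIH2 and AMBP. None was called. Over the late mean, ITIH1 probe 7820 had -0.38 (SE 0.15, adjusted p = 0.825) and the other ITIH1 probes -0.05 and under 0.01 in size. ITIH2 had 0.20, -0.07 and -0.20 on its 3 probes. AMBP, which encodes bikunin, had -0.38 on probe 9510 (SE 0.18, adjusted p = 0.827), 0.05 on probe 1162 and -0.09 on probe 7881. No partner probe was as high in the late mean as ITIH4 probes 8239 and 11628 or ITIH3 probe 2382. ITIH2 probe 2093, at 0.20, was above ITIH3 probes 7418 (0.18) and 5405 (0.02) and ITIH4 probe 9401 (-0.37). The largest partner changes at T0 were 0.73 (SE 0.25) on ITIH1 probe 1965 and -0.65 (SE 0.30) on AMBP probe 1162. The differences between genes were not tested.

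**Figure D4:**
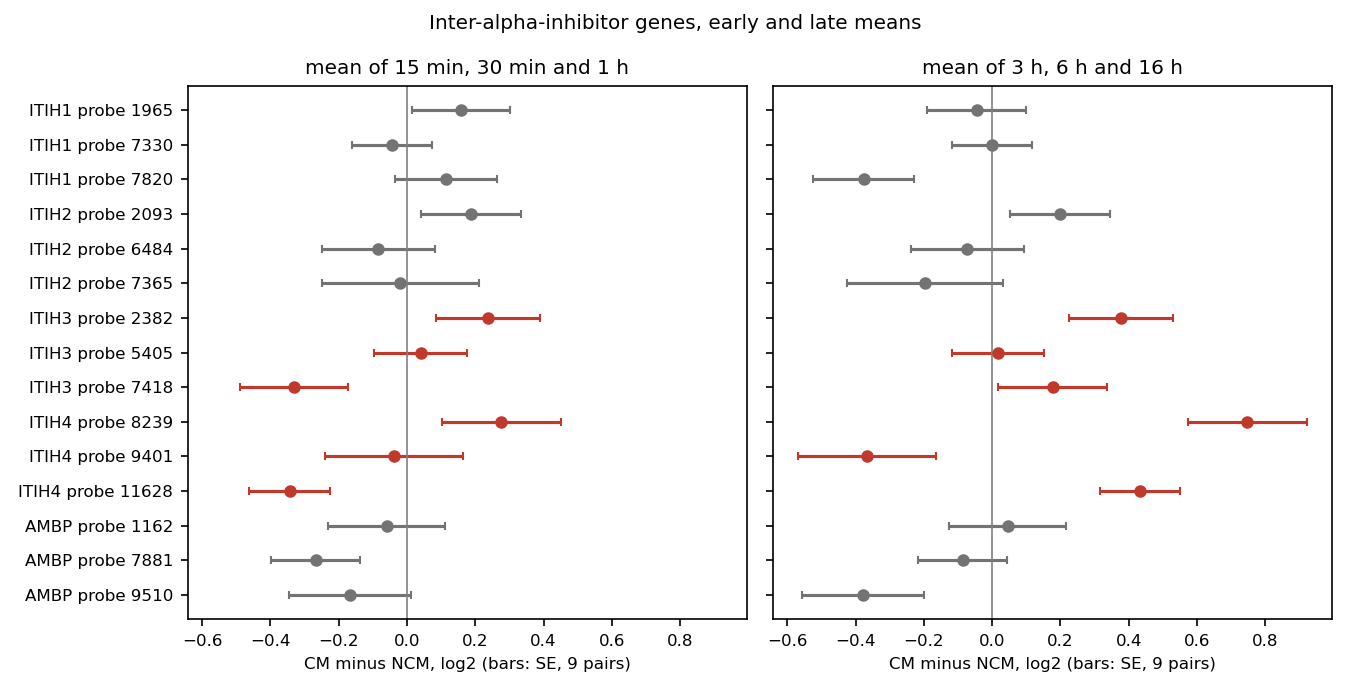
Change in CM against NCM (log2, horizontal axis) of all probes of ITIH1, ITIH2, ITIH3, ITIH4 and AMBP, as the mean of the 3 early times (left) and the 3 late times (right); points are means of 9 pairs, bars the SE, red the ITIH3 and ITIH4 probes. In the late panel ITIH4 8239 (0.75) and 11628 (0.43) lie farthest to the right, and ITIH1 7820, AMBP 9510 and ITIH4 9401 lie near -0.37.

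The wider list of inter-alpha-inhibitor and hyaluronan genes had 9 of 20 genes measured by a probe of their own. In this list and those below, each gene is given by its brightest probe only. AMBP, ITIH1 and ITIH2 thus count with -0.09, -0.05 and 0.20, and their other probes, given above, are left out. None was called in the late mean, 5 were above 0 and the median was 0.10, beside 0.01 for all probes. TNFAIP6, whose product transfers heavy chains to hyaluronan, had 0.31 (SE 0.11, adjusted p = 0.813) with 7 of 9 pairs higher. PTX3, a pentraxin that binds heavy chains in that matrix, had -0.57 (SE 0.20, adjusted p = 0.80, higher in 2 of 9). The PTX3 probe was dim, at percentile 6.68 among all probes, and its change at T0 was larger in size, at -0.90. Among 6 of 8 measured genes of plasma kallikrein and protein processing, to which the protease that cuts the ITIH4 chain belongs, none was called and the median was 0.08. SERPING1, the inhibitor of that protease, had 0.21 (SE 0.20), KNG1, its kininogen substrate, 0.17 (SE 0.16), and its own gene, KLKB1, 0.15 (SE 0.14).

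ITIH4 was also set beside the late means of acute phase genes that interleukin-6 is reported to raise. Of 12 such genes 9 were measured, none was called, 5 were above 0 and the median was 0.03. FGG and FGB, fibrinogen chains, had 0.58 (SE 0.19, adjusted p = 0.739) and 0.56 (SE 0.15, adjusted p = 0.537). Of 8 genes reported to rise with interleukin-1 and interleukin-6 together, 4 were measured. Of these, 3 were above 0 with a median of 0.37, and 1 was called. It was CFB, complement factor B, with 0.72 (SE 0.13, adjusted p = 0.0418) and 1.47 at 16 h (adjusted p = 0.0177). CFB was higher in 7 of 9 late pairs, and its change was 0.41 at T0 and -0.14 at 3 h. At 16 h no probe was called without the replicate block, on the values as deposited, with median centring, with each time fitted alone or without experiment 2. In the late mean none was called without the block or without experiment 1 or 2. ORM1, an acute phase glycoprotein, had 0.63 (SE 0.13, adjusted p = 0.152). The remaining measured genes of this list, CRP and C3, had -0.05 (SE 0.11) and 0.11 (SE 0.18). The late mean of ITIH4 probe 8239, 0.75 with its shared values, stood beside 0.72 of CFB with a larger SE (0.17), and that of probe 11628 was 0.43. Of 10 genes reported to fall in inflammation none was called and 5 were above 0. The largest in size were FETUB, a fetuin, with 0.41 (SE 0.28) and APOA1, the apolipoprotein of high-density lipoprotein, with -0.32 (SE 0.15). The FETUB value came from 6 h (1.21), with -0.03 at 3 h and 0.04 at 16 h.

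Genes that act upstream of acute phase genes had no calls. In the list of interleukin-6 receptor, STAT3 and C/EBP genes 9 of 14 were measured, with a median late mean of -0.05. CEBPD, a C/EBP factor of the acute phase, had 0.43 (SE 0.17, adjusted p = 0.825) with 8 of 9 pairs higher. Its early mean was larger, at 0.57, and its change at 16 h was 0.18. JAK2, a kinase of cytokine receptors, had -0.39 (SE 0.24) with 0 of 9 pairs higher. Of 8 liver transcription factors 3 were measured, with a median of -0.28, and FOXA1 and FOXA2 had -0.48 (SE 0.18, adjusted p = 0.813) and -0.28 (SE 0.18). The FOXA1 probe, at percentile 24.3 among all probes, had -1.07 at 3 h, -0.04 at 6 h and -0.33 at 16 h. FOXA1 and FOXA2 had the same change at T0, 0.278, and whether they share deposited values was not tested. Around the heavy chain genes on chromosome 3, 12 of 22 genes were measured, none was called and the median was 0.05. The largest in size were GLT8D1, with 0.30 (SE 0.15), and TKT, with -0.26 (SE 0.14). MUSTN1 and STIMATE, next to ITIH4, had 0.15 (SE 0.13) and 0.18 (SE 0.18).

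The genes whose 21 pair differences were most like those of ITIH4 probe 11628, among 5629 genes with 1 probe each, were HORMAD2 (Pearson 0.768), MTURN (0.752), CYP7B1 (0.747), TSNAX (0.727) and DENND10 (0.724). Probe numbers of 3 of these 5, HORMAD2, CYP7B1 and DENND10, lie in the same run of 384 numbers as that of ITIH4, and that of HORMAD2 is 2 numbers away. After subtracting the mean deviation of neighbouring probe numbers on each array, the correlations with ITIH4 were all lower, at 0.687 for HORMAD2, 0.596 for MTURN, 0.618 for CYP7B1, 0.238 for TSNAX and 0.504 for DENND10. The largest drop was that of TSNAX, which lies outside the run. For ITIH3 probe 7418 the most alike genes were MAGED1 (0.745), EPS8L2 (0.742), ZMYND8 (0.730), IL1RAP (0.697) and ALDH3A2 (0.655), none of them in its run of 384 numbers. The same subtraction lowered each of these too, to 0.287, 0.517, 0.618, 0.479 and 0.503 in that order, and 3 of the 21 points use shared values. The part of position on the array in either list was not tested otherwise. These are the highest correlations among 5629 genes over few pairs and are given as a description.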

How the data were processed

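The 42 arrays of Hep3B total RNA form 14 groups of 3, assigned by medium and time from the sample titles. The deposited values are linear intensities, 1 per probe and array, with medians per array between 0.354 and 0.807 and at most 2.12% of values below 0. How the authors made these intensities (array type, scanner, background and scaling) is not given in the sources used here.

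The arrays were quantile normalized on the linear scale, floored at the common 1st percentile (0.0812) and put on the log2 scale. Tests used limma 3.58.1 in R 4.3.3 with all 42 arrays in a model of pairs and of a separate CM effect at every time (14 residual degrees of freedom), two-sided, with Benjamini-Hochberg adjustment over 13824 probes. Levels over time were fitted on the 21 arrays of a medium without pairs. The pairing comes from the labels, and in all 21 of 21 pairs the arrays' deviations from the group means were correlated, by 0.308 to 0.754. Gene names come from the array annotation and matched a RefSeq gene table by Entrez ID for 6 of 6 probes.

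Named genes are all ITIH3 and ITIH4 probes, the 5 genes most correlated with the brightest probe of each, the list members past the threshold or otherwise the 2 with the largest late mean, and the partners and neighbours of the heavy chains. KLKB1, ORM1, CRP and C3 fall outside that rule and were chosen after their values were seen. The members and lists were chosen with earlier results of these data known. The scripts were checked on simulated data. Of 50 probes given a log2 change of 0.5 at the late times, 1 was called at 16 h and 18 in the late mean. Of 50 given a change of 1, 27 and 47 were called. Among probes given no change, 8 and 5 were called. Alternatives were other normalizations, floors, filters, probe averaging, neighbour centring, array weights, no replicate block and leaving out each experiment. Leaving out values shared between probes of a gene, equal in every deposited digit, was added after seeing the data. The number of arrays limits the precision, and no array was left out.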

Additional observations from a re-analysis of the deposited data

Results flagged for a closer look

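Of the 6 probes, 3 had a time with 3 of 3 pairs higher in CM and another with 3 of 3 lower, as 28.3% of all probes did. For ITIH4 probe 11628 the change at 16 h exceeded that at 1 h by 1.10 (SE 0.29, adjusted p = 1.00). For ITIH3 probe 7418 the change at 16 h, which rests on numbers shared with probe 2382, exceeded that at 30 min by 1.16 (SE 0.39, adjusted p = 0.894). For ITIH3 probe 5405 the change at 3 h exceeded that at 15 min by 0.74 (SE 0.33, adjusted p = 0.977).

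Among the 9 early pair differences of ITIH3 probe 5405, that of experiment 1 at 15 min, -0.90, stood apart from the rest. It was 1 of 12 sets of pair differences held against Dixon's 95% critical value, which by its definition chance passes in about 1 of 20 sets.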

How the results depend on the processing

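For the 79 values of ITIH3 and ITIH4 probes, 942 values were computed under alternatives, of which 871 kept their sign. Of the 71 with another sign, 49 had moved by 1 SE or less and 22 by more. Only 1 passed the threshold: with array weights, ITIH4 probe 11628 at 15 min had -0.56 (adjusted p = 0.0329), in a fit that called 531 probes at that time. The sign also turned for ITIH4 probe 11628 at T0 with neighbour centring (-0.14) and at 30 min with probes of the gene averaged (0.17). It turned for ITIH4 probe 9401 at 15 min with array weights (0.51), for ITIH3 probe 7418 at 30 min with probes averaged (0.011) and for the late mean of ITIH3 probe 5405 on the deposited values (-0.14). The cause was not tested. Averaging was applied to the brightest probe of each gene only. The filters on dim probes removed ITIH3 probes 2382 and 5405, and the stricter one ITIH4 probe 8239 too.

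Leaving out 1 experiment turned the sign of 29 of the 79 values, 17 of them by more than 1 SE. These 17 are given here as lowest to highest. For ITIH4 probe 8239 this was T0, -0.11 to 0.51. For ITIH4 probe 9401 it was T0, -0.29 to 0.40, 1 h, -0.61 to 0.20, 6 h, -0.58 to 0.28, the early mean, -0.28 to 0.24, and the late mean minus T0, -1.03 to 0.013. For ITIH3 probe 2382 it was 15 min, -0.12 to 0.57, 16 h, -0.083 to 0.61, and the late minus early mean, -0.081 to 0.39. For ITIH3 probe 5405 it was 16 h, -0.58 to 0.043, and the late minus early mean, -0.13 to 0.18. For ITIH3 probe 7418 it was 6 h, -0.34 to 0.30. For 16 h minus T0 in CM it was -0.28 to 0.56 on probe 2382, -0.85 to 0.50 on probe 5405, -1.07 to 0.11 on probe 7418 and -0.14 to 0.59 on probe 11628, whose value in NCM was -0.57 to 0.15. The late means of ITIH4 probes 8239 and 11628 stayed between 0.61 and 0.91 and between 0.39 and 0.50. The other 12 turned by 1 SE or less and are not listed singly.

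Without the replicate block, which drops the pairing, the late mean of ITIH4 probe 8239 stayed at 0.75 with an SE of 0.24 (adjusted p = 1.00), and the late mean called 0 probes on the array in place of 6. Leaving out experiment 1 or 2 also gave 0 calls, deposited values or median centring 1, probes averaged or leaving out experiment 3 gave 2, an intensity trend 10 and array weights 14, none of them ITIH3 or ITIH4. At 16 h the count of 1 ranged from 0 to 7.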
